A study of Mus musculus with 4 samples.

Results

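Malat1, Neat1, Tug1, Pvt1, Trp53cor1 and Miat are long noncoding RNAs (lncRNAs) that act mainly in the nucleus. Their 6 gene entries, out of 47937 gene entries in the deposited count table, were taken by symbol and were selected on measured values, since Malat1 and Neat1 were higher with genistein in these same libraries. Their differences between the groups are therefore a description and carry no test. Wild-type mouse embryonic fibroblasts (MEF cells, connective tissue cells cultured from embryos) were left untreated or were exposed to 50 µM genistein, a plant isoflavone, for 24 h. The labels call the control group untreated and name no vehicle for these samples. They give 2 libraries per group and do not say whether these came from separate cultures, so the p-values below measure only the spread between these libraries. Total RNA was depleted of ribosomal RNA and sequenced from both ends, which also captures RNA without a poly(A) tail. Because each library holds the RNA of many cells, more RNA per cell and more cells with the RNA cannot be told apart.

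The 4 libraries held between 28591958 and 31464284 counts. Of 13 fibroblast markers, 11 had a mean above 1 CPM (counts per 1e6 counts of the library), Thy1 was at 0 counts in every library, and the summed level of the markers lay between 14382 and 14832 CPM. Single markers moved within this sum, as 2 rose (Dcn 2.11-fold and Fn1 1.15-fold) and 8 fell, among them Pdgfrb (0.603-fold) and Twist1 (0.641-fold). Leukocyte markers summed to 0.0325 and 0.104 CPM without and 0.667 and 0.385 with genistein. Endothelial markers summed to 0.618 and 0.865 CPM without and 2.57 and 2.90 with genistein, mostly from Kdr. Neuronal markers summed to between 26.9 and 29.9 CPM, mostly from Tubb3, which was lower with genistein (0.858-fold). Syn1 of the same list rose from 5 and 7 to 33 and 37 reads, and Rbfox3 and Snap25 were at 0. Pluripotency markers summed to 1.07 and 1.21 CPM without and 1.65 and 1.96 with genistein. Epithelial markers summed to 14.7 and 15.1 CPM without and 4.64 and 4.51 with genistein, most of it from Krt8, while Epcam had no counts. The composition of the RNA moved with the groups. The share of repeats was 11.97% and 12.5% without genistein and 14.6% and 13.6% with it. The mRNAs of 88 cytosolic ribosomal proteins took 2.20% and 2.17% against 1.69% and 1.74%. The part of these shifts in the results below was not tested.

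Malat1 and Neat1 are neighbours in the genome and are among the most abundant nuclear RNAs of cultured cells. Malat1 lies in nuclear speckles, bodies rich in splicing factors, whereas Neat1 is the scaffold on which paraspeckles form. Neat1 is made as a short polyadenylated form and as a long form that shares its start, and only the long form builds paraspeckles. Malat1 and the long form of Neat1 have no poly(A) tail. RNase P cuts them before a tRNA-like structure, and the new end folds into a triple helix in which an A-rich run pairs with U-rich runs. Tug1 takes part in chromatin and cell cycle regulation, Pvt1 is transcribed next to Myc, Trp53cor1 (lincRNA-p21) lies beside the cell cycle inhibitor gene Cdkn1a and is a p53 target, and Miat is best known from neurons and heart.

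The annotation (GENCODE M21 on GRCm38, the assembly also called mm10) places Malat1 at chr19:5795690-5802672 and Neat1 at chr19:5824708-5845478, both on the minus strand and 22035 bases apart. The longest model of each is 1 exon, of 6983 bases for Malat1 and 20771 bases for Neat1. The 3′ region of Malat1 at chr19:5795912-5796077 and the last 100 bases of the long Neat1 model at chr19:5824708-5824807, both on the minus strand, are shown because they set these RNAs apart from polyadenylated RNAs. Both are written 5′ to 3′ as DNA, with the 2 U-rich runs (T in DNA letters) and the A-rich run in capitals.
Malat1-201: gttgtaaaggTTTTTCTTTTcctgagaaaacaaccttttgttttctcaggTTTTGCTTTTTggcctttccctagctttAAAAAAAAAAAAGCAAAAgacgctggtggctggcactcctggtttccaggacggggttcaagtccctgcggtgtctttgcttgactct
Neat1-201: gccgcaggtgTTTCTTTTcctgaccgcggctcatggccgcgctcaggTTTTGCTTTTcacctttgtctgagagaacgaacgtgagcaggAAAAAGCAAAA

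The annotated long Neat1 model stops at the last base of the A-rich run. The annotated Malat1 model goes on for 292 bases past it and so includes the tRNA-like part that follows the run. A pattern written from these 2 sequences (TTTCTTTT, then TTTTGCTTTT, then AAAAAGCAAAA, each with runs of T or A of that length or longer and with gaps of at most 60 bases, on the transcript strand) was found in 2 of 141767 annotated mouse transcripts, 1 of Malat1 and 1 of Neat1. The short Neat1 model, of 3004 bases after splicing, ends otherwise, and its last 60 bases are shown with the poly(A) signal AATAAA in capitals.
Neat1-202: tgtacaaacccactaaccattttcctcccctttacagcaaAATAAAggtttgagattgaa

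The signal starts so that 14 bases follow it, and AATAAA was present in the last 50 bases of 26.6% of annotated transcripts of at least that length. It was not in the last 50 bases of the long Neat1 model. A match to these letters is a description and not a measured site.

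Malat1 had 131835 and 121698 reads without genistein, against 641773 and 590734 with it. After scaling, the normalised read count was 130268 ± 2013 (SD, n = 2) without and 599866 ± 2755 (SD, n = 2) with genistein, a log2 fold change of 2.20 with a standard error of 0.03, or 4.61-fold. Both genistein libraries lay far above both untreated libraries, and the 2 libraries of a group were close to each other. As a part of the whole library, Malat1 went from 4287 and 4210 CPM to 20397 and 20661.

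Neat1 had 12055 and 10954 reads without and 24522 and 20204 reads with genistein. The normalised read count was 11820 ± 314 (SD, n = 2) in the untreated group and 21722 ± 1800 (SD, n = 2) in the genistein group, 1.84-fold higher (log2 fold change 0.88, standard error 0.06). The groups did not overlap, but relative to their mean the 2 genistein libraries, at 22995 and 20450, stood further apart than those of Malat1, Tug1 and Pvt1. Within a library, there were 10.9 and 11.1 Malat1 reads for each Neat1 read without genistein, and 26.2 and 29.2 with it. The 2 neighbouring RNAs were thus both higher with genistein, by unequal factors.

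Pvt1, at chr15:62037986-62378096 on the plus strand with 21 blocks of exons, had 1126 and 1083 reads without and 2301 and 2125 reads with genistein. The normalised read count was 1136 ± 15.4 against 2154 ± 4.87 (SD, n = 2 each), a log2 fold change of 0.92 with a standard error of 0.04. Tug1, at chr11:3639785-3649673 on the minus strand, had 4570 and 4123 against 5560 and 5143 reads. Its normalised read count of 4465 ± 141 (SD, n = 2) without and 5210 ± 5.85 (SD, n = 2) with genistein gave a log2 fold change of 0.22 with a standard error of 0.03, or 1.17-fold. Pvt1 was close to Neat1 in its fold, while Tug1 differed least, although its groups did not overlap either.

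Trp53cor1, at chr17:29057430-29079179, and Miat, at chr5:112213228-112229395, were next to absent. Trp53cor1 had 0 reads in 3 libraries and 1 in genistein 2, and Miat had 0 reads in both untreated libraries, 2 in genistein 1 and 1 in genistein 2. Taking 3 counts as what a count of 0 still allows (counting error only), either RNA could have had up to 0.0503 CPM in the pooled untreated libraries. Neither passed the filter on low counts, and no fold is given. Of the 6 lncRNAs, 4 passed the filter, and the 4 had both genistein libraries above both untreated libraries. Of all 16240 genes that passed, 40.7% had this pattern, while 33.5% rose and 38.2% fell past the threshold (Benjamini-Hochberg adjusted p below 0.05, quasi-likelihood test of edgeR). The 4 lncRNAs were chosen in part for this pattern, so nothing is read from their count.

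**Figure D1:**
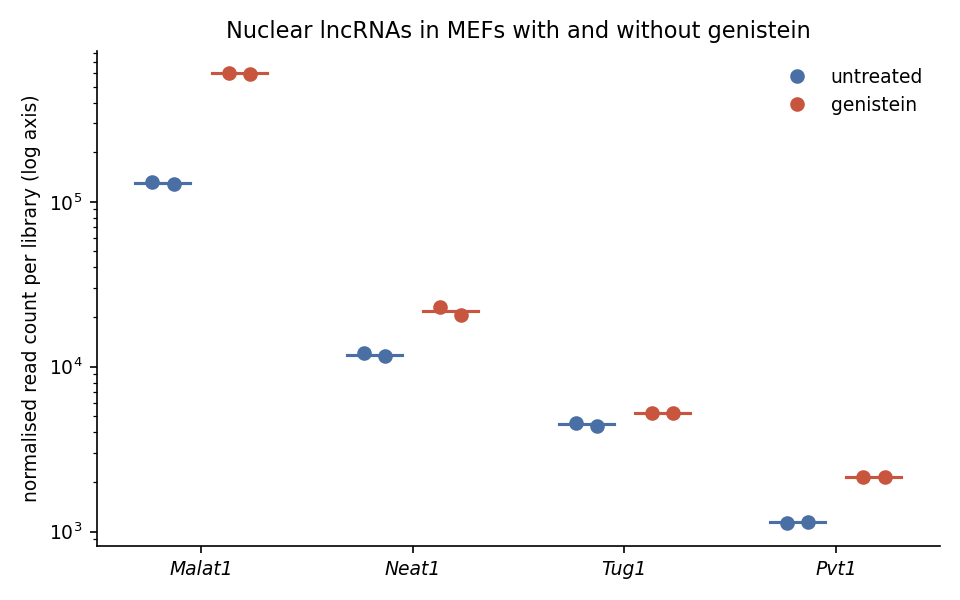
Normalised read counts of the 4 lncRNAs that passed the filter, on a log axis, with 1 point per library and a line at the mean of each group. Malat1 lies at 128845 to 131692 in the untreated and 597918 to 601813 in the genistein libraries, and the 2 points of Neat1 with genistein, 20450 and 22995, are the widest pair on this axis.

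Levels were compared between the lncRNAs only per length, as CPM with the scaled library size per kilobase of merged exons. Malat1 was the highest, at 624 ± 9.64 (SD, n = 2) without and 2872 ± 13.2 with genistein. Ranked by this level among 16157 genes with an annotated length, it was number 74 in the untreated and number 12 in the genistein group. In the same ranking Neat1 was number 2901 and number 1201. Neat1 followed at 19.02 ± 0.506 and 35.0 ± 2.90, then Tug1 at 15.3 ± 0.486 and 17.9 ± 0.0201, and Pvt1 at 5.43 ± 0.0737 and 10.3 ± 0.0233. The Pvt1 level was 11.4 and 21.7 by its longest transcript (3319 bases) and 0.112 and 0.212 by its gene span, and it was below Tug1 with each length. The order of Neat1 and Tug1 in untreated cells turned with the length used, since Tug1 lay at 22.2 ± 0.703 and above Neat1 when its longest transcript (6719 bases) replaced its merged exons (9734 bases). In the genistein group Neat1 was above Tug1 with either length (25.9 for Tug1 by its longest transcript).

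The annotation holds short gene models, of type misc_RNA, that overlap exons of these lncRNAs, and the table counts them as entries of their own. They act as windows on parts of each RNA. A read there falls in 2 gene models, and how the counter treats such reads is not given in the sources used here. Neat1 has 3 of them, Gm28006, Gm27505 and Gm27533, which lie 442 to 1193 bases from its start and so within the first 3172 bases, the stretch spanned by both the short and the long form. Their sequences are shown because they mark the part of Neat1 that these counts come from. They run at chr19:5844916-5845037, chr19:5844638-5844747 and chr19:5844286-5844437, on the minus strand.
Gm28006: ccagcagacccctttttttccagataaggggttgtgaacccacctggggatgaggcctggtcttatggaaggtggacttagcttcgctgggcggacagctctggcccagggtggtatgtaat
Gm27505: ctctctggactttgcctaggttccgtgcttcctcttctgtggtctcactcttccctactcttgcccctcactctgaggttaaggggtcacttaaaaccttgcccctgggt
Gm27533: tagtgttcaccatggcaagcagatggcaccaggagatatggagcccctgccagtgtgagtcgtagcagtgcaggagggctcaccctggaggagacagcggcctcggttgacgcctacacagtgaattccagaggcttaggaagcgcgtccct

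These windows differed more between the groups than Neat1 as a whole. Gm28006 had 207 and 177 reads without and 698 and 576 with genistein, a log2 fold change of 1.65 with a standard error of 0.09. Gm27505 had 184 and 147 against 606 and 530 reads (1.70, standard error 0.09). Gm27533 had 208 and 180 against 810 and 669 reads (1.85, standard error 0.09). The fold change of the whole gene, 0.88 on the same log2 scale, was lower than each of the 3. Summed, the windows held 4.97% and 4.60% as many reads as the whole gene in the untreated libraries and 8.62% and 8.79% as many in the genistein libraries. Reads per base in the windows were 2.69 and 2.49 times those of the whole gene without genistein and 4.66 and 4.75 times with it, an increase of this ratio by 1.82-fold. No part of Neat1 that only the long form covers has an entry of its own here, so long and short form were not measured apart. The contrast is the one that chose Neat1 and was not tested.

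In the other lncRNAs the same ratio changed by 1.09-fold (Malat1), 0.990-fold (Tug1) and 0.910-fold (Pvt1). In Malat1, the 86-base window Gm27694 had 2470 and 2429 against 13415 and 12479 reads (log2 fold change 2.32, standard error 0.04), and the ratio to the whole gene was 1.52 and 1.62 without and 1.70 and 1.72 with genistein. In Tug1, 4 windows had log2 fold changes from 0.05 to 0.30, and the ratio went from 2.05 and 2.16 to 2.11 and 2.05. In Pvt1, 3 windows had log2 fold changes of 0.53, 0.92 and 0.93, and the ratio went from 3.67 and 3.46 to 3.24 and 3.25. The last of these windows, Gm27957, has only 82 of its 127 bases in exons of Pvt1. A fragment that overlaps a short window only in part can be counted for it, so the size of such a ratio is no measure of coverage, and only its change within 1 set of windows is compared. Intronic Gm27782 of Pvt1 had 19 and 22 against 60 and 55 reads (log2 fold change 1.40, standard error 0.23).

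**Figure D2:**
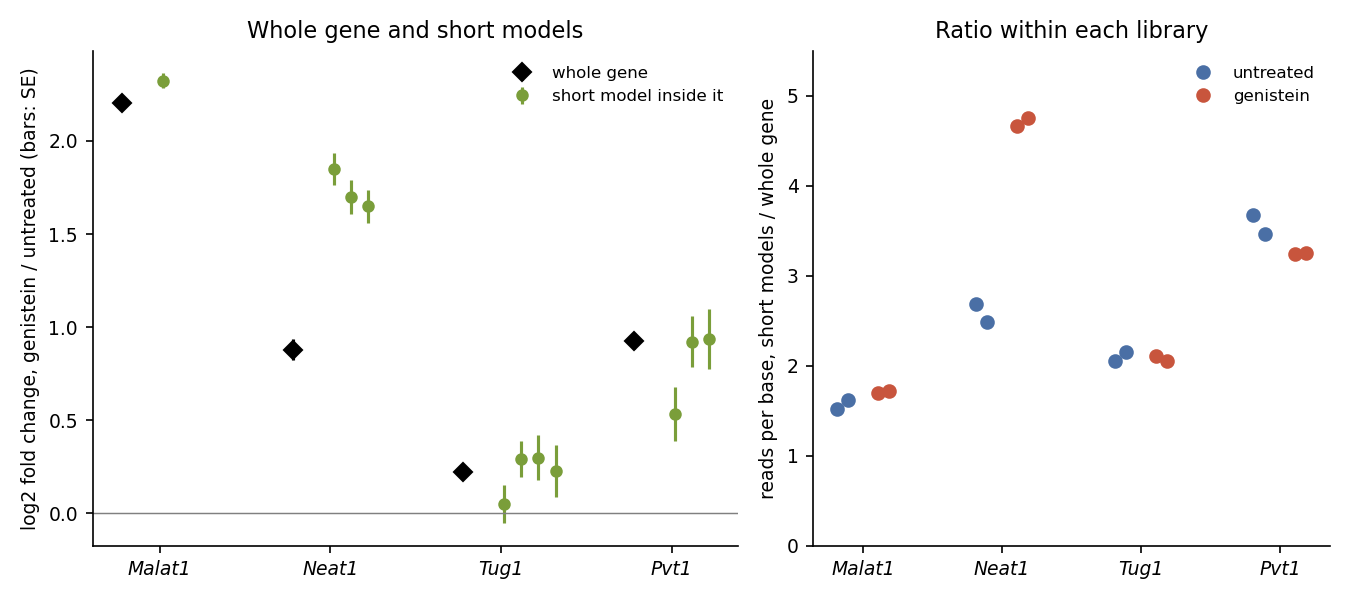
Left, log2 fold change (genistein over untreated, bars are standard errors) of each whole lncRNA and of the short gene models that overlap its exons. Right, reads per base in the summed short models divided by those of the whole gene, 1 point per library. The 3 windows of Neat1 lie at 1.65 to 1.85 above the whole gene at 0.88, and the Neat1 ratio is 2.49 to 2.69 without and 4.66 to 4.75 with genistein.

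Antisense entries were read with caution, since the strand option of the counting was not stated. Gm37376, annotated on the strand opposite to Malat1, had 23 and 19 against 102 and 77 reads (log2 fold change 2.01, standard error 0.22), with reads per base at 0.00269 and 0.00241 times those of Malat1 without and 0.00245 and 0.00201 times with genistein. Whether these few reads came from Malat1 was not tested. The protein-coding gene Morc2a overlaps the first 483 bases of Tug1 on the opposite strand, and its 3089 and 2957 against 3221 and 2935 reads did not pass the test (log2 fold change -0.05, adjusted p = 0.18, edgeR).

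The promoters of Malat1, Tug1 and Miat were in the sequence table (RefSeq, GRCm38.p6, 250 bases before to 50 after the start). Those of Malat1 and Tug1 are printed as the members with the largest and the smallest difference, at chr19:5802623-5802922 and chr11:3648765-3649064, both on the minus strand. The RefSeq start of Malat1 is that of the GENCODE model, whereas the RefSeq start of Tug1 lies downstream of the GENCODE start, so that its printed stretch lies wholly within the GENCODE gene. Motifs were searched on both strands as TATAAA for the box bound by TBP, CCAAT for the box bound by NF-Y, GGGCGG for the box bound by Sp1, TGACG for a half-site of the cyclic AMP response element and CACGTG for the E-box, and matches are in capitals.
Malat1: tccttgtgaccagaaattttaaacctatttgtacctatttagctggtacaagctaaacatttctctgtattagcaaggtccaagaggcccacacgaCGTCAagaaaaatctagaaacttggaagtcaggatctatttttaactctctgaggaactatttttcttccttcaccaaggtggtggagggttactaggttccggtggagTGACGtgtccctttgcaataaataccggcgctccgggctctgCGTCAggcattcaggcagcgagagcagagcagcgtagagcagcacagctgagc
Tug1: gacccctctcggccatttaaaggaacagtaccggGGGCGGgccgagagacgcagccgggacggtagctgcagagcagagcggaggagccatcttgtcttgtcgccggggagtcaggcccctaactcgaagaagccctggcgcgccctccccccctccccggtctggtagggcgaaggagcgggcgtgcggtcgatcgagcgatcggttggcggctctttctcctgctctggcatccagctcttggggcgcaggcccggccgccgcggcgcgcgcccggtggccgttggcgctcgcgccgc

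The Malat1 promoter held 3 matches to TGACG, 1 of them on its own strand and 2 on the opposite strand, and none to the other 4 motifs. TGACG was present in 20.8% of 32851 promoters. The Tug1 promoter held 1 match to GGGCGG, as 35.7% of promoters did, and Miat also held 1. The shares for the motifs without a match in Malat1 or Tug1 were 13.6% for TATAAA, 37.4% for CCAAT and 7.2% for CACGTG. These letters are no evidence that a factor binds.

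Of the 30 nearest protein-coding genes (3 on each side, each gene once), 18 were tested, 8 (44.4%) rose and 6 (33.3%) fell, beside 33.5% and 38.2% of all genes, with a median log2 fold change of 0.05 beside -0.03 over all genes. These shares lay near those of all genes. Trp53cor1 itself was near 0 reads, but Cdkn1a, 11.8 kb away, had 370 and 340 reads without and 2770 and 2371 with genistein. Cdkn1a, which encodes the cell cycle inhibitor p21, rose by 2.78 on the log2 scale (standard error 0.06, edgeR adjusted p = 9.1e-16). On the other side of Trp53cor1, Srsf3, a splicing factor, fell by 0.85 on the log2 scale (adjusted p = 2.1e-11).

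Myc, 47.6 kb from Pvt1 and a driver of growth genes, had 2853 and 2515 reads without and 1302 and 1308 with genistein. It fell by 1.12 on the log2 scale (standard error 0.05, adjusted p = 4.8e-12, edgeR), whereas Pvt1 was 1.90-fold higher in the same libraries. Malat1 and Neat1 have the same 6 neighbours. Frmd8, 4.22 kb from Neat1, rose from 1312 and 1291 to 2650 and 2453 reads (log2 fold change 0.89, standard error 0.04, adjusted p = 1.2e-11), and Slc25a45, a mitochondrial carrier gene, rose from 24 and 19 to 103 and 100 reads (2.15, standard error 0.20, adjusted p = 7.2e-08). On the other side, Sssca1 fell by 0.86 on the log2 scale, and Ltbp3 rose by 0.13. Smtn and Selenom, 99.2 and 122 kb from Tug1, rose by 0.21 and 0.29, while Morc2a, which overlaps Tug1, did not pass the test (-0.05). Mn1, 756 kb from Miat, rose by 0.58, and Pitpnb, 825 kb away, fell by 0.46. The closer Tpst2, 47.3 kb from Miat, did not pass the test (-0.03, adjusted p = 0.6, edgeR).

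**Figure D3:**
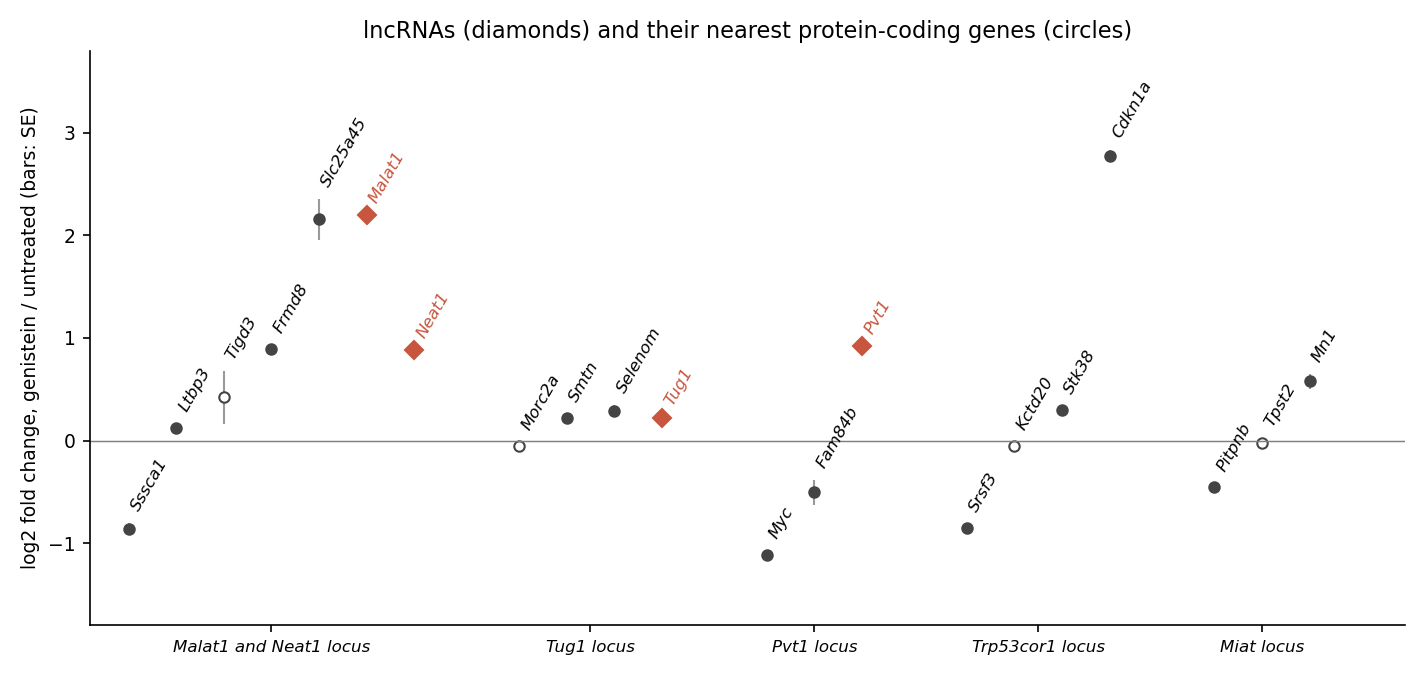
Log2 fold change (genistein over untreated, bars are standard errors) of the nearest protein-coding genes reported for each lncRNA (circles, open where the adjusted p was not under 0.05) and of the lncRNAs that passed the filter (diamonds, no test). Cdkn1a at 2.78 is highest, Myc at -1.12 is lowest, and Pvt1 and Myc lie on opposite sides of 0.

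Genes for the proteins of paraspeckles mostly fell while Neat1 was higher. Of 32 listed genes, all tested, 26 (81.2%) fell and 4 (12.5%) rose, beside 38.2% and 33.5% of all genes, and the median log2 fold change was -0.43. These values are RNA levels, and the proteins were not measured. The RNAs for the core proteins Sfpq and Nono, which bind Neat1 and are needed for paraspeckles, fell by 0.61 and 0.53 (log2, edgeR adjusted p = 1.8e-09 and 1.6e-08). Their partner Pspc1 did not pass the test, with 1997 and 1872 against 2114 and 2158 reads (log2 fold change 0.07, adjusted p = 0.21). Among the RNA-binding protein genes of the list, Hnrnpf fell by 0.97, Tardbp by 0.86 and Fam98a by 0.83, the largest decreases. Cirbp, a cold-inducible RNA-binding protein, rose by 0.45 and Rbm4b by 0.31.

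Some of these proteins are known to take part in the choice between the short and the long form of Neat1, and they were picked out here after their values were seen. Nudt21 and Cpsf6, which form the cleavage factor that favours the short form, fell by 0.71 and 0.36 on the log2 scale. Hnrnpk, which hinders this cleavage, fell by 0.77, from 14515 and 13137 to 8725 and 8359 reads. Tardbp, which favours the short form, had 9811 and 8909 against 5617 and 5235 reads. The RNA level of factors of both kinds fell.

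Nuclear speckle genes fell too while Malat1 was higher. Of 24 listed genes, all tested, 20 (83.3%) fell and 1 (4.17%) rose, beside 38.2% and 33.5% of all genes, with a median log2 fold change of -0.55. The 3 largest decreases were in splicing factor genes, where Srsf2 fell by 1.12, Srsf1 fell by 1.09 and Srsf3 fell by 0.85, while Srsf5 did not pass the test (log2 fold change -0.07). Clk1, a kinase that phosphorylates such factors, rose by 0.50 (2795 and 2673 against 4295 and 3880 reads, adjusted p = 1.6e-09). Of the genes for scaffold proteins of speckles, Son fell by 0.26 and Srrm2 did not pass the test (log2 fold change 0.04, adjusted p = 0.51).

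The genes listed for the enzymes that make the 3′ end of Malat1 and long Neat1, and for a protein that binds it, all fell in RNA level. Amounts and activities of these proteins were not measured. Of 13 listed genes, 13 were tested and 13 fell, beside 38.2% of all genes, with a median log2 fold change of -0.94 and values from -1.82 to -0.21. Rpp25, Rpp40 and most of the list encode protein subunits of RNase P and of the related RNase MRP. Rpp25 had 323 and 231 against 81 and 84 reads and fell by 1.82 (log2, edgeR adjusted p = 1.2e-08), and Rpp40 fell by 1.16. Elac2, the RNase Z that trims the tRNA-like product of Malat1, fell by 1.08, from 1862 and 1709 to 958 and 823 reads. Mettl16, a protein that binds the Malat1 triple helix, fell by 0.81. Rpph1, the RNA of RNase P, stood in another list and fell by 0.61 (165114 and 167148 against 119774 and 110383 reads).

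Genes of nuclear RNA decay (the exosome and the factors that bring RNAs to it) showed the same direction. Of 17 listed genes, 16 were matched and tested, 15 (93.8%) fell and 1 (6.25%) rose, beside 38.2% and 33.5% of all genes, with a median log2 fold change of -0.84. Exosc3 (764 and 736 against 329 and 372 reads) fell by 1.17, Exosc1 by 1.13 and the nuclease gene Dis3 by 1.05. Zfc3h1, part of the connection that targets polyadenylated nuclear RNAs, rose by 0.22 (adjusted p = 3.7e-05). Mtrex, the helicase of the exosome, fell by 0.68. At the thresholds used in the study (log2 fold change beyond 1 and mean normalised count over 100 besides the adjusted p), which 3.92% of all genes passed upward and 4.16% downward, 4 of the 3′ processing genes, 5 of the decay genes, 2 of the speckle genes and 0 of the paraspeckle genes fell, and none of these lists had a gene that rose.

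**Figure D4:**
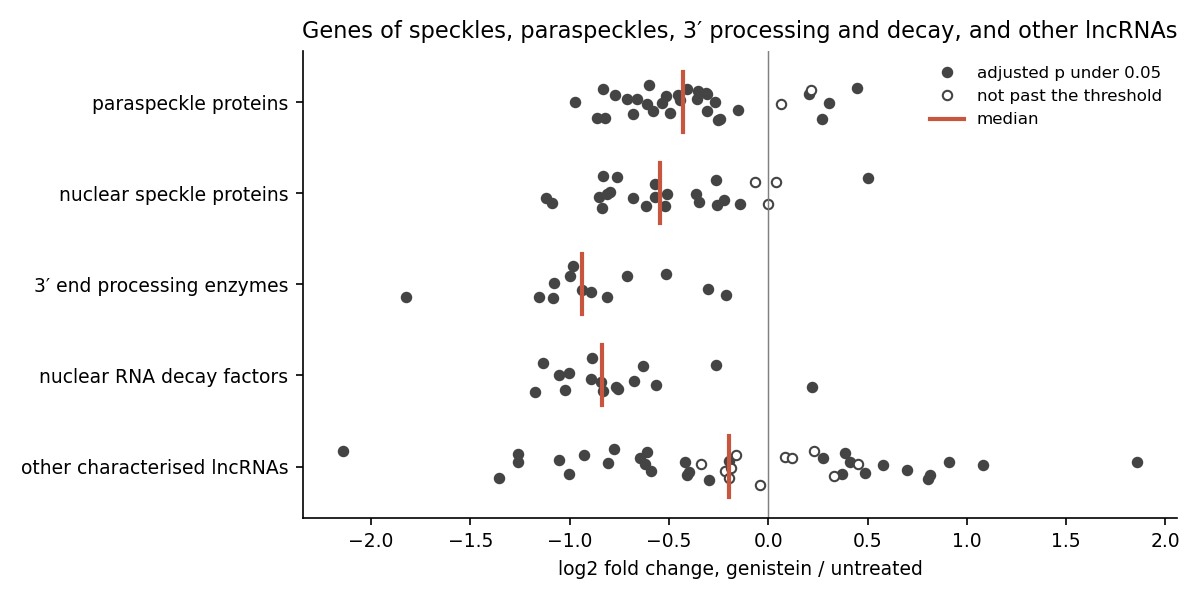
Log2 fold change (genistein over untreated) of each tested gene in 5 lists, with 1 point per gene (filled where the adjusted p was under 0.05) and a line at the median. The medians are -0.43 for paraspeckle proteins, -0.55 for speckle proteins, -0.94 for 3′ processing enzymes, -0.84 for decay factors and -0.20 for other lncRNAs, whose values run from -2.14 to 1.86.

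Of 53 other characterised lncRNAs that were listed, 51 were matched and 41 were tested. Of these, 12 (29.3%) rose and 18 (43.9%) fell, near the 33.5% and 38.2% of all genes, and the median log2 fold change was -0.20. Of all tested genes annotated as lncRNAs, 41.4% rose and 11.8% fell. The list is no sample of that class, so the shares are not alike in what they cover. Among its genes that fell are many hosts of small nucleolar RNAs, such as Zfas1 (by 1.05), Gas5 (0.81) and Snhg1 (0.78). Rn7sk, Rpph1 and Rmrp, which fell by 0.65, 0.61 and 0.41, stand in it too. The part of these genes in the difference was not tested. Lncpint, a p53 target, had 108 and 112 against 494 and 351 reads and rose by 1.86 (adjusted p = 2.5e-09, edgeR). Meg3, a maternally expressed imprinted RNA, rose by 1.08, and Carmn, found in smooth muscle, rose by 0.81. Mir17hg, the host of the miR-17 cluster and a target of Myc, fell by 2.14, from 1038 and 953 to 245 and 231 reads. Snhg5, a host of small nucleolar RNAs, fell by 1.35 and Epb41l4aos by 1.26.

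By annotated type, 1056 lncRNA genes were tested, of which 437 (41.4%) rose and 125 (11.8%) fell, with a median log2 fold change of 0.37. The 12213 protein-coding genes had a median of -0.05, with 34.3% that rose and 42.2% that fell. Sense-intronic RNAs had a median of 0.84 (n = 154), antisense RNAs of 0.22 (n = 276) and unclassified TEC models of 0.71 (n = 776). Sense-intronic models lie within introns of other genes. TEC models took 0.168% and 0.185% of the counts without and 0.295% and 0.293% with genistein. The part of intronic reads in the class median was not tested. Among the 1056 lncRNA genes, Malat1 was number 35 by log2 fold change, Pvt1 number 266, Neat1 number 289 and Tug1 number 617.

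**Figure D5:**
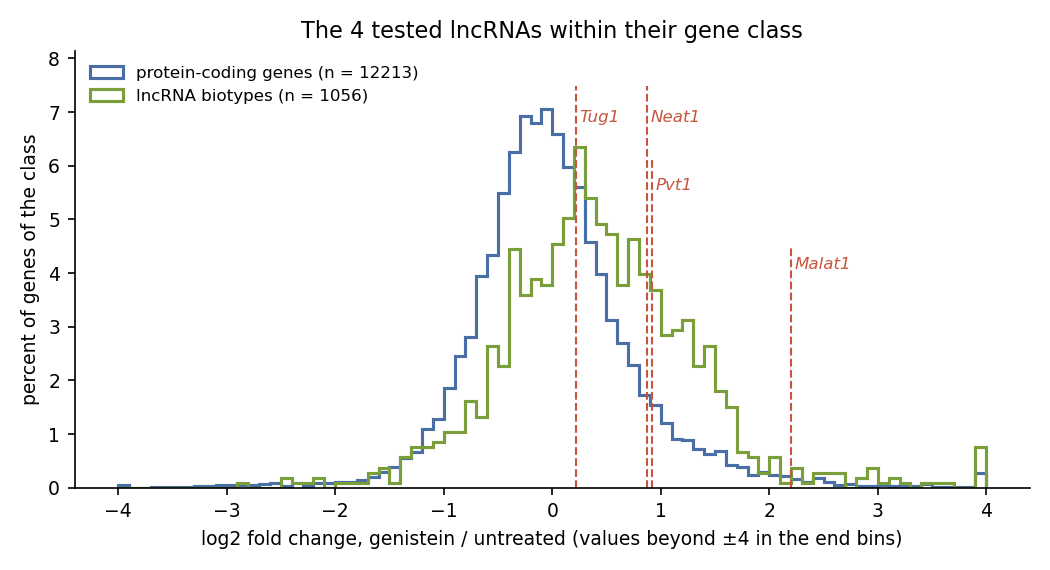
Distribution of log2 fold changes (genistein over untreated) as the percent of genes of each class, for 12213 protein-coding genes and 1056 lncRNA genes, with dashed lines at the lncRNAs described here. The lncRNA class is shifted to the right (median 0.37 against -0.05), Tug1 at 0.22 lies to the left of its median and Malat1 at 2.20 in its right tail.

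The genes whose 4 values were most like those of Malat1 were found by the Euclidean distance of centred log2 normalised counts, among 10403 named genes with a mean over 100. With only 4 libraries in 2 groups, this likeness is close to a likeness in fold. Nearest to Malat1 were Ephx1, a detoxifying epoxide hydrolase (1973 and 1796 against 9686 and 9001 reads, distance 0.03), Igsf9b (89 and 82 against 457 and 410 reads, distance 0.07) and Btg2, an antiproliferative p53 target (1003 and 911 against 4589 and 4230 reads, distance 0.08). Nearest to Neat1 were Cry2, a repressor of the circadian clock (354 and 318 against 732 and 595 reads, distance 0.03), Slc45a3 (190 and 177 against 392 and 317 reads, distance 0.03) and Gfod1 (258 and 225 against 513 and 433 reads, distance 0.05).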

How the data were processed

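The deposited values are raw counts, which the authors obtained with TEtranscripts over GENCODE M9 genes and repeats. Before that, STAR placed the trimmed reads (Trim Galore) on mm10, and multimapping reads were retained. The strand option is not given in the sources used here. Lengths come from GENCODE M21, so models may differ from those counted. Counts of 1 unnamed entry (0.00208% to 0.00314% of a library) were left out.

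Genes and repeats were fitted together with edgeR 4.0.16 in R 4.3.3 (filterByExpr by group, 16240 genes and 1118 repeats kept, TMM scaling, quasi-likelihood test, Benjamini-Hochberg adjustment over all kept entries, threshold 0.05). A normalised count is the count over the effective library size times the mean of these sizes. The standard error is the log2 fold change divided by the square root of F. Replicate SDs and standard errors cover the spread between libraries. An exact permutation test of 2 against 2 libraries cannot go below p = 0.333.

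The members and lists were chosen with earlier results of these data known. Per list, up to 3 increases and 3 decreases with an adjusted p under 0.05, a mean over 100 and no overlap between groups were named, with neighbours changed by more than 1 on the log2 scale. Other genes were named for their known role. A neighbouring gene and a gene of a list are counted but not reported here by name. On simulated counts for genistein against untreated, 200 of 17058 entries were changed 2-fold, and all 200 were called in the right direction, with 18 of 16858 unchanged entries called. The changed entries were drawn from those with a mean over 100, with equal numbers raised and lowered. In the data 33.5% of genes rose and 38.2% fell, so the simulation does not show how the calls behave with that many changes. Same-numbered libraries did not deviate together (r = -0.03). DESeq2 1.42.0, other scalings and filters, the replicate number as a block and the omission of 1 library at a time were tried.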

Additional observations from a re-analysis of the deposited data

How the results depend on the processing

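Of 242 values recomputed under alternatives, 202 stayed within 1.5 times the reported count or within 1 replicate SD, 40 moved and 0 reversed. The median log2 fold change of the lncRNA class was 0.41 with TMM factors from genes alone, 0.44 with library totals alone, 0.34 without a filter on low counts, and 0.37 to 0.39 when 1 library was left out. The median of the 4 lncRNAs that passed the filter was 0.90 as fitted and 0.97 with library totals alone. The difference in the log2 ratio of Neat1 to Malat1 was -1.33, and -1.41 to -1.25 when 1 library was left out. The median over all genes moved as well, from -0.03 as fitted to 0.01 with TMM factors from genes alone and 0.04 with library totals alone. The ratio of Neat1 to Malat1 does not depend on scaling. The cause of these moves was not tested. At the thresholds of the study, calls fell to 637 higher and 676 lower genes in all, 0 and 4 for 3′ processing, 0 and 5 for decay, 0 and 2 for speckles, 0 and 0 for paraspeckles, 2 and 6 for other lncRNAs and 1 and 1 for neighbours, by construction. The 0 calls stood against 4 higher and 26 lower paraspeckle genes at an adjusted p under 0.05 in edgeR. With 1 neighbour on each side in place of 3, 3 rose and 3 fell of 7 tested. The share of calls that were higher was 46.7% as fitted and 43.3% to 52.4% under other settings. DESeq2 called 4050 higher and 5309 lower genes, and the replicate block 5336 and 6131, with no reported count moved by over 1.5 times under either. Leaving out a library left 11 to 13 of the 3′ processing genes lower. Precision is limited by 2 libraries per group, and Trp53cor1 and Miat lay at the limit of detection.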
